A study of Homo sapiens with 4 samples.

Results

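The CC chemokine genes CCL2, CCL3, CCL3L3, CCL4, CCL5 and CCL20 were followed across PC3 and DU145 prostate cancer cells with and without a knockdown of ESS2. They were chosen by name, through every probe whose accession matched one of these symbols, after their values on these arrays were known. The array held 8 such probes, 2 each for CCL3L3 and CCL4 and 1 for each of the other 4 genes, so that these are 6 of the 25122 genes to which a symbol could be given. Total RNA of 4 cell populations was labelled with Cy3 and hybridized to 4 Agilent arrays of human transcripts, 1 for each population. PC3-shC and DU145-shC cells carried a control shRNA directed against luciferase, and PC3-shESS2 and DU145-shESS2 cells carried an shRNA against ESS2, a nuclear protein found with the spliceosome. PC3 and DU145 are androgen-independent lines derived from a bone and a brain metastasis of prostate cancer, and all 4 populations were kept in RPMI1640 medium with serum and antibiotics. The series text describes lentiviral delivery of the shRNA, while the methods of the study describe transfected plasmids and puromycin selection for PC3 and do not describe a knockdown in DU145 cells. The sources used here do not say whether the populations were pools or single clones, no second shRNA against ESS2 is named for these arrays, and the labels name no stimulus. As no population was measured on a second array, every ratio given here is a description without a test.

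CC chemokines are small secreted proteins, named for a pair of adjacent cysteines, which attract leukocytes by binding G protein-coupled receptors. CCL2 attracts monocytes through CCR2. CCL3, its near copy CCL3L3, CCL4 and CCL5 attract monocytes and T cells, and CCL3 and CCL5 bind CCR1 among other receptors, while CCL20 binds CCR6 on dendritic cells and subsets of lymphocytes. Most of these genes are silent or low in resting epithelial cells and are induced through NF-κB and interferon regulatory factors, and tumour cells can produce several of them. CCL2, CCL3, CCL3L3, CCL4 and CCL5 lie in a cluster on the long arm of chromosome 17, and CCL20 lies apart from them on chromosome 2.

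The stretch of 250 bases before the transcription start is shown for CCL20 and for the CCL3 pair, because the first was lower in both knockdown lines and the other genes differed most between the lines. RefSeq sequences of GRCh38.p14 were matched for 3 of the 6 genes, and CCL2, CCL4 and CCL5 are named only. The CCL20 stretch is chr2:227813592-227813841 on the plus strand, the CCL3 stretch is chr17:36090144-36090393 on the minus strand, upstream of the outermost of its listed starts, and the CCL3L3 stretch is chr17:36196759-36197008 on the minus strand. Each is written 5′ to 3′ on the strand of its gene, with the last base next to the start, and capitals mark matches to the motifs described after them.
CCL20: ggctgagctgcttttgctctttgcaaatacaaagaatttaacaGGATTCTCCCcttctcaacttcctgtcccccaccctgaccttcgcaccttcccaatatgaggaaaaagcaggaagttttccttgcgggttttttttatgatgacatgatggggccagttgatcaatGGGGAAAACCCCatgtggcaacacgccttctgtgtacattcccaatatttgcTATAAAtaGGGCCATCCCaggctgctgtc
CCL3: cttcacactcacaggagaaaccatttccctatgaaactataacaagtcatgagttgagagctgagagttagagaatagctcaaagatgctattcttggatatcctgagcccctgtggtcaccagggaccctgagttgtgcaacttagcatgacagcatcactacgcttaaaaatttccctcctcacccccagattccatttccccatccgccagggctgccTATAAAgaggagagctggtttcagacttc
CCL3L3: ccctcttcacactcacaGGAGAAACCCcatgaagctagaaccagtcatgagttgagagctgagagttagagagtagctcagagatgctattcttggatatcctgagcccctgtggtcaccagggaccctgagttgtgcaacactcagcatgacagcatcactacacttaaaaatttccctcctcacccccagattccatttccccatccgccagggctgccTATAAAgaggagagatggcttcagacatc

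The motifs searched, on both strands and with overlapping matches counted, were a loose κB form (GGGNNNNNCC, the type of site that NF-κB binds), the stricter κB consensus, the core of the interferon-stimulated response element (GAAANNGAAA), the AP-1 motif TGANTCA and the TATA box TATAAA. CCL20 held a match to the strict κB consensus on the minus strand, from 79 to 70 bases before the start. That match lies within a run of overlapping loose matches from 81 to 70 bases before the start, and further loose matches stood from 207 to 198 and from 21 to 12 bases before it. CCL3L3 held 1 loose κB match, from 233 to 224 bases before its start, and CCL3 held none. All 3 stretches held TATAAA from 29 to 24 bases before the start, and none held the response element core or the AP-1 motif in these letters. Of the 35116 stretches of the same length in the RefSeq table, 54.4% held the loose κB form, 9.96% the strict one, 3.02% the response element core, 6.57% the AP-1 motif and 10.7% the TATA box. Between CCL3 and CCL3L3 the stretches were identical in 233 of 256 aligned columns (91.0%), whereas that of CCL20 shared 42.6% of its columns with CCL3 and 41.8% with CCL3L3.

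The knockdown was visible on the arrays. The ESS2 probe had a processed signal, the background-subtracted fluorescence of a spot in arbitrary units, of 133 in PC3-shC, 53.6 in PC3-shESS2, 85.7 in DU145-shC and 17.3 in DU145-shESS2 cells. After each array was scaled to its 75th percentile, which lay between 212 and 290, ESS2 was 2.74-fold lower in PC3-shESS2 than in PC3-shC cells and 5.09-fold lower in DU145-shESS2 than in DU145-shC cells, while GAPDH differed by 1.14-fold and 1.03-fold. The scanner software marks spots that are brighter than their surroundings as well above background, which held for 50.8 to 52.6% of spots other than controls, and 0 were saturated. A probe without that mark is called dim here. The lowest signal with that mark lay between 8.15 and 9.02, and a dimmer spot was raised to it before a ratio was taken, so that such a ratio is a bound and carries the words at least. Both PC3 arrays lay on 1 slide and both DU145 arrays on another, so that cell line and slide cannot be told apart. CTNNA1, a catenin gene known to be lost in PC3 cells, was dim on both PC3 arrays and well above background on both DU145 arrays. The epithelial markers EPCAM, KRT8, KRT18 and KRT19 were well above background on all 4 arrays. With the ESS2 shRNA the keratins were within 2-fold in both lines, and EPCAM was so in PC3 cells. In DU145 cells EPCAM was 6.11-fold lower (2120 and 357).

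In PC3 cells the inflammatory chemokines CCL3, CCL3L3, CCL4 and CCL5 were higher with the ESS2 shRNA, and CCL20 was lower. CCL3, CCL3L3 and CCL4 went from dim signals to clear ones, CCL5 went from a low signal to a high one, and CCL2 was dim on both arrays. Of the 5 genes that could be compared, 4 were higher with the ESS2 shRNA and 1 was lower by more than 2-fold, where 3.88% of the 16764 genes compared were higher and 3.87% were lower by that much. The genes were chosen with this contrast known, so that nothing can be read from the difference between these shares.

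In DU145 cells the pattern was a different one. CCL20 was lower with the ESS2 shRNA as in PC3 cells, CCL2 was lower too, and the ratios of CCL3, CCL3L3 and CCL4 lay between −0.26 and 0.13 on the log2 scale. CCL5 was dim in DU145-shC cells, so that only a bound could be given for it. Of the 6 genes compared, 0 were more than 2-fold higher and 2 were more than 2-fold lower in DU145-shESS2 cells, beside 2.36% and 2.47% of the 16842 genes compared.

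**Figure D1:**
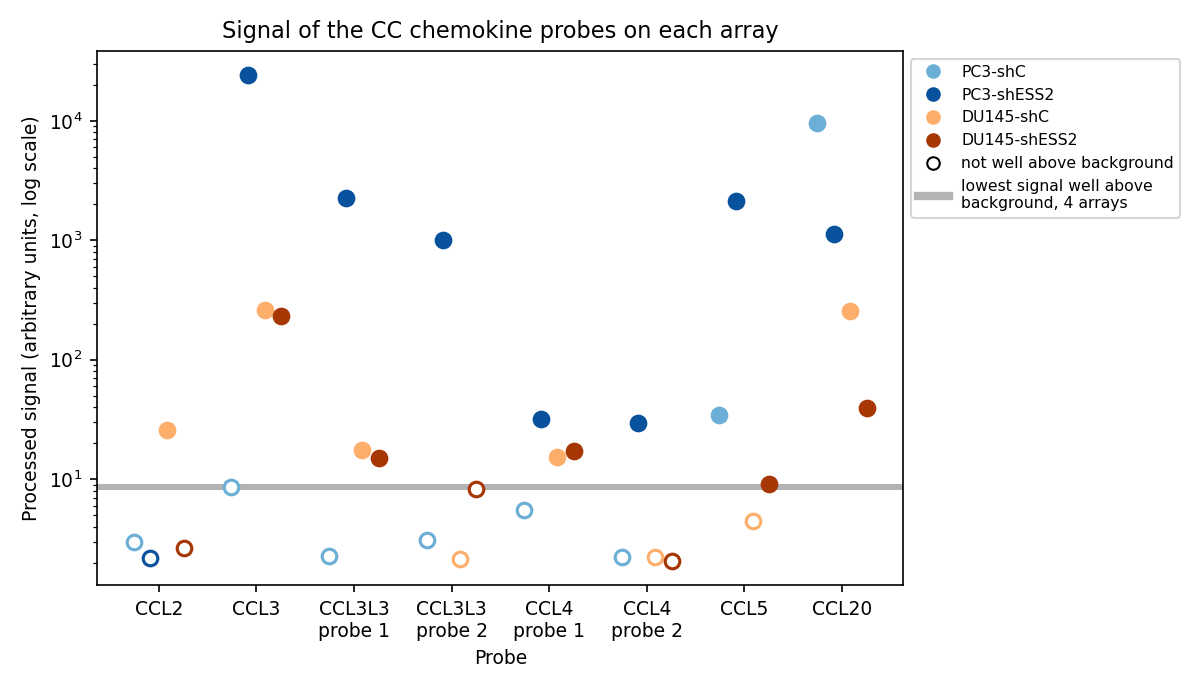
Processed signal (arbitrary units, log scale) of the 8 probes on the 4 arrays, with filled points well above background, open points not, and a grey band for the lowest signal that was well above background on each array (8.15 to 9.02). CCL20 was well above background on all 4 arrays, and the PC3-shESS2 points of CCL3, CCL3L3, CCL4 and CCL5 stand above the other 3 points of each probe.

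CCL3, also known as macrophage inflammatory protein 1-alpha, had a signal of 8.67 in PC3-shC, 24200 in PC3-shESS2, 260 in DU145-shC and 234 in DU145-shESS2 cells. CCL3 was dim in PC3-shC cells and there alone, with a signal only just under the lowest one well above background on that array (8.94). In PC3-shESS2 cells CCL3 was at least 2450-fold higher than in PC3-shC cells (log2 ratio of at least 11.26), and this was the highest ratio of all 16764 genes compared in PC3, with every bound ranked at its own size. With normexp background correction (which adds an offset, here 50, to every signal) the log2 ratios in PC3 were 8.26 for CCL3, 4.92 for CCL3L3 and 4.50 for CCL5. For signals under 50 that offset alone holds a ratio within about 2-fold, so that normexp cannot bear out or refute a call on such signals. The DU145 arrays differed by 1.14-fold (log2 ratio −0.19, DU145-shESS2 over DU145-shC). Among probes spotted 10 times, the SD of a log2 ratio between single spots at signals from 200 to 1000 was 0.088, which covers neither the hybridization nor the culture. In RNA of a whole culture, a smaller number of cells that express a gene and less RNA of it in each cell cannot be told apart, which holds for every level given here.

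CCL3L3 encodes a protein nearly identical to CCL3 from a gene whose copy number varies between people, and its probes may also bind CCL3 RNA. Its brighter probe had a signal of 2.25 in PC3-shC, 2280 in PC3-shESS2, 17.6 in DU145-shC and 15.1 in DU145-shESS2 cells. The other probe had 3.10 in PC3-shC, 1010 in PC3-shESS2, 2.16 in DU145-shC and 8.22 in DU145-shESS2 cells. Both probes were dim in PC3-shC cells and bright in PC3-shESS2 cells, whereas in DU145 cells only the first was well above background. The PC3 ratio was at least 231-fold by the first probe (log2 ratio of at least 7.85, behind CCL3 alone) and at least 102-fold by the second. In DU145 cells the first probe gave a log2 ratio of −0.26, under the spot SD of 0.322 at signals from 9 to 20, and the second gave no fold because both its signals were dim. As RNA of CCL3 and of CCL3L3 was not separated by a test of the probes, the values of these genes may not be independent.

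CCL5, or RANTES, is a chemoattractant for T cells and monocytes. Its signal was 34.6 in PC3-shC, 2150 in PC3-shESS2, 4.43 in DU145-shC and 9.04 in DU145-shESS2 cells. CCL5 was well above background on both PC3 arrays, and in DU145 cells only with the ESS2 shRNA, where its signal was close to the lowest one with that mark (8.15). The PC3 ratio was 56.4-fold (log2 ratio 5.82) and was measured on both sides. It was the third highest of the genes compared in PC3, after CCL3 and CCL3L3. In DU145 cells CCL5 was at least 1.02-fold higher with the ESS2 shRNA, a bound that says little, and the plain signals without the floor gave a log2 ratio of 0.99.

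CCL4, or macrophage inflammatory protein 1-beta, was represented by 2 probes of low signal, 32.0 at most. The first had a signal of 5.54 in PC3-shC, 32.0 in PC3-shESS2, 15.2 in DU145-shC and 17.1 in DU145-shESS2 cells. The second had 2.22 in PC3-shC, 29.4 in PC3-shESS2, 2.21 in DU145-shC and 2.06 in DU145-shESS2 cells. Both were well above background in PC3-shESS2 cells and dim in PC3-shC cells, and they disagreed in DU145 cells, where the second was dim on both arrays. The PC3 ratio was at least 3.25-fold by the first probe (log2 ratio of at least 1.70) and at least 2.98-fold by the second. With normexp, whose offset exceeds these signals, the log2 ratio of the first probe was 0.42. The DU145 log2 ratio of the first probe was 0.13, under the spot SD of 0.322 at that signal. The older of 2 annotation releases in the files assigns both probes to CCL4L2, a near copy of CCL4, so that the gene behind the signal is uncertain. A further probe, assigned here to CCL4L2, had 10.0 in PC3-shC cells and was dim on the other arrays, at 5.99 in PC3-shESS2 cells. Another CCL4L2 probe was dim on all 4 arrays. Which RNA each probe binds was not tested.

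CCL20, also called macrophage inflammatory protein 3-alpha, was the only one of the 6 genes that was well above background on all 4 arrays. Among the genes that could be compared in both lines, it was the only one more than 2-fold lower with the ESS2 shRNA in both. CCL2 could not be compared in PC3 cells. Its signal was 9630 in PC3-shC, 1130 in PC3-shESS2, 255 in DU145-shC and 39.1 in DU145-shESS2 cells. In each line the array with the ESS2 shRNA was the lower one, and both PC3 arrays were above both DU145 arrays. CCL20 was 9.40-fold lower in PC3-shESS2 than in PC3-shC cells (log2 ratio −3.23), at place 59 from the lowest of the genes compared. It was 6.71-fold lower in DU145-shESS2 than in DU145-shC cells (log2 ratio −2.75), at place 13 from the lowest of 16842. The PC3 ratio minus the DU145 ratio was −0.49 on the log2 scale, and this difference was not tested. With normexp the DU145 log2 ratio was −1.81.

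CCL2, or monocyte chemoattractant protein 1, was the only one of these genes spotted 10 times, so that the error between its spots could be given. The mean spot signal was 3.26 ± 1.70 in PC3-shC (SD, n = 10 spots), 2.18 ± 0.198 in PC3-shESS2 (n = 9), 25.9 ± 3.05 in DU145-shC (n = 8) and 2.84 ± 1.23 in DU145-shESS2 cells (n = 10), after outlier spots were left out. In DU145-shC cells all 10 spots were well above background, with signals from 21.2 to 29.4, and on the other arrays 0 of 10 were. The spots of DU145-shESS2 cells, from 1.69 to 5.17, did not overlap those of DU145-shC cells, and the PC3 spots, from 1.88 to 6.57 and from 1.93 to 2.98, overlapped each other. No fold was therefore given for CCL2 in PC3 cells. In DU145 cells it was at least 3.25-fold lower with the ESS2 shRNA (log2 ratio of at most −1.70), and the plain signals gave −3.33. With normexp, whose offset exceeds these signals, the log2 ratio was −0.45.

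Side by side, CCL3 and CCL3L3 had the widest gap between the lines. The PC3 log2 ratio exceeded the DU145 one by 11.45 for CCL3, 8.11 for CCL3L3 and 1.57 for CCL4, each of them resting on a bound in PC3 cells. For CCL20 the ratios pointed the same way in both lines. None of these differences was tested, as each line has 1 array for each condition.

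**Figure D2:**
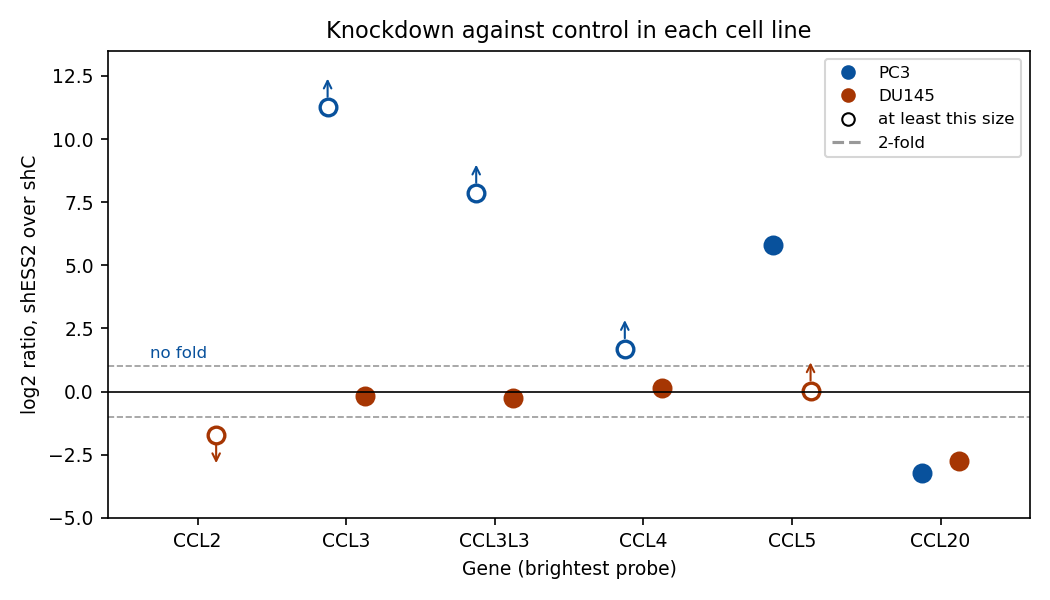
The log2 ratio of shESS2 over shC for the brightest probe of each gene in PC3 and DU145 cells, with open points and arrows for ratios that are bounds and dashed lines at a 2-fold difference. In PC3 cells CCL3 (11.26), CCL3L3 (7.85), CCL5 (5.82) and CCL4 (1.70) lie above the upper line, and CCL20 lies below the lower one in PC3 (−3.23) and in DU145 (−2.75).

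**Figure D3:**
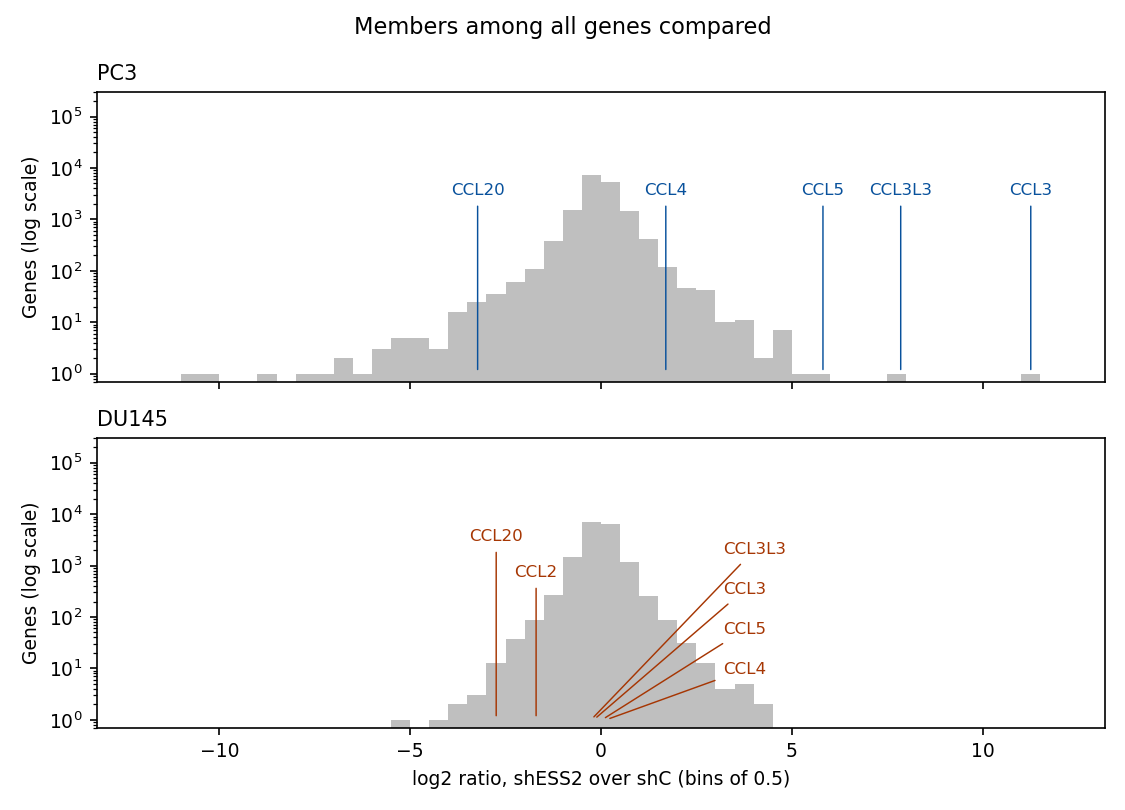
Number of genes (log scale) by log2 ratio of shESS2 over shC, in bins of 0.5, among the 16764 genes compared in PC3 and the 16842 compared in DU145 cells, with the chemokine genes marked. CCL3, CCL3L3 and CCL5 are the 3 highest values in PC3, and in DU145 CCL3, CCL3L3 and CCL4 lie between −0.26 and 0.13, with CCL5 marked at its bound of 0.02.

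The starting levels of these genes also differed between the lines. Of the 6 genes, 2 were well above background in PC3-shC cells (CCL5 and CCL20), against 5 on each of the other 3 arrays. Between the control arrays, CCL20 was 30.4-fold higher in PC3-shC than in DU145-shC cells (log2 ratio 4.93), and CCL5 was at least 3.22-fold higher. CCL3 was at least 36.1-fold lower in PC3-shC cells, CCL2 at least 3.57-fold lower, CCL3L3 at least 2.44-fold lower and CCL4 at least 2.11-fold lower. The calls on CCL3L3 and CCL4 did not hold with the arrays scaled to their medians, at log2 ratios of −0.83 and −0.62. With normexp the ratios of CCL2 (−0.62), CCL3L3 (−0.45), CCL4 (−0.43) and CCL5 (0.42) were all within 2-fold, as the offset alone brings about at control signals under 50, and that of CCL3 was −2.37. In all, 2 genes were more than 2-fold higher and 4 more than 2-fold lower in PC3-shC cells, beside 22.1% and 19.9% of the 17475 genes compared, and here cell line and slide cannot be told apart.

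None of the other CC chemokines compared was past 2-fold with the knockdown. The shares to set beside this and each list that follows are 3.88% of all genes higher and 3.87% lower in PC3 and 2.36% higher and 2.47% lower in DU145 cells, so that a count of 0 or 1 in a short list is near the background and says nothing particular about the list. Of 22 such genes 19 had a probe, 10 of them were dim on all 4 arrays, and none was past 2-fold in PC3 (9 compared, median log2 ratio −0.05) or in DU145 cells (6 compared, median −0.03). Over all genes the medians were −0.06 and −0.02. The eotaxin CCL24 had signals of 3470 in PC3-shC, 3020 in PC3-shESS2, 1940 in DU145-shC and 1800 in DU145-shESS2 cells. CCL28, a mucosal chemokine, had 193 in PC3-shC, 311 in PC3-shESS2, 154 in DU145-shC and 89.8 in DU145-shESS2 cells, with log2 ratios of 0.55 and −0.82. CCL26, another eotaxin, was well above background in PC3 cells, at 191 and 280, and was dim on both DU145 arrays, so that between the control arrays it was at least 17.8-fold higher in PC3-shC cells.

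Among the 14 CC chemokine receptors, 8 were dim on all 4 arrays, including CCR2, the receptor of CCL2. CCR1, a receptor of CCL3 and CCL5, had a signal of 128 in PC3-shC, 21.4 in PC3-shESS2, 1.93 in DU145-shC and 1.79 in DU145-shESS2 cells. It was 6.60-fold lower in PC3-shESS2 than in PC3-shC cells (log2 ratio −2.72), on the array where its ligands CCL3 and CCL5 were highest, and dim in both DU145 populations. CCR6, the receptor of CCL20, had 224 in PC3-shC, 333 in PC3-shESS2, 309 in DU145-shC and 383 in DU145-shESS2 cells, with log2 ratios of 0.43 and 0.27. CCR10 was 2.10-fold higher in PC3-shESS2 than in PC3-shC cells (139 against 60.1). In PC3 cells, 1 of 5 receptors compared was thus past 2-fold in each direction (median log2 ratio −0.11), and in DU145 cells 0 of 4 were (median 0.20).

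Transcription factors known to act on CC chemokine genes were mostly within 2-fold, as most genes were. In PC3 cells 0 of 17 compared were more than 2-fold higher and 2 were lower (median log2 ratio −0.11). Among these was IRF7, a factor of interferon induction, at 25300 in PC3-shC and 6490 in PC3-shESS2 cells (log2 ratio −2.10). In DU145 cells 1 of 18 was past 2-fold (median −0.01), the AP-1 subunit FOS, which was higher with the ESS2 shRNA at 5260 against 1810 (2.83-fold). The NF-κB subunits NFKB1, NFKB2, RELA, RELB and REL were all within 2-fold in both lines.

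Of 20 upstream cytokines and sensors, which can act upstream of chemokine genes, 2 of 16 compared were higher by more than 2-fold and 4 were lower with the ESS2 shRNA in PC3 cells (median log2 ratio 0.03). IFNB1, which encodes interferon beta, was dim in PC3-shC cells (6.56) and reached 130 in PC3-shESS2 cells, at least 13.2-fold higher, and IL6 was 6.15-fold higher (3600 and 24400). By RT-qPCR the study reported unchanged IL6 and lower TNF in PC3-shESS2 cells, so that the IL6 value of the array differs from it. IL1B, an inducer of CCL20 in epithelial cells, was 15.2-fold lower in PC3-shESS2 cells (43800 and 3170) and dim in DU145 cells. IL1A, TLR3 and TNF were the other genes past 2-fold on the lower side, with log2 ratios of −2.20, −1.41 and at most −1.22. In DU145 cells 2 of 13 were higher, IL6 (log2 ratio 2.48) and STING1 (1.69), and 3 were lower (median −0.04). Those were OSM (at least 7.38-fold, from 58.5 to a dim 7.27), TNF (at least 4.37-fold, from 34.6 to a dim 3.98) and the RNA sensor IFIH1 (2.33-fold). The OSM probes disagreed, as another one was well above background on both DU145 arrays (11.2 and 13.4, log2 ratio 0.22).

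Inhibitors of NF-κB, related IκB proteins and factors that bind or degrade chemokine mRNA were all measured, and in PC3 cells 1 of 14 was higher with the ESS2 shRNA by more than 2-fold and 4 were lower (median log2 ratio −0.10). TNFAIP3, which encodes the A20 inhibitor of NF-κB, had 252 in PC3-shC and 812 in PC3-shESS2 cells (2.92-fold higher), and 352 in DU145-shC and 69.3 in DU145-shESS2 cells (5.22-fold lower). ZC3H12A, which encodes the ribonuclease Regnase-1, was 5.55-fold lower in PC3-shESS2 cells (3920 and 779), followed by NFKBIZ, an IκB family member that can also activate NF-κB target genes (3.07-fold), NFKBIA (2.29-fold) and CYLD (2.04-fold). In DU145 cells 1 was higher and 2 were lower (median −0.20). ZFP36, which encodes the mRNA-decay factor tristetraprolin, was 2.19-fold higher, and NFKBIA, the NF-κB inhibitor IκB-alpha, was 2.17-fold lower beside TNFAIP3.

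Of 12 genes for chemokine cleavage and binding, 1 of 8 compared in PC3 cells was higher with the ESS2 shRNA by more than 2-fold and 1 was lower (median log2 ratio 0.22). DPP4, a peptidase that trims CCL5 and other chemokines, was 2.47-fold higher (239 and 650), and TNFAIP6, whose product binds chemokines, was 3.24-fold lower (44.6 and 15.2). In DU145 cells 0 of 7 were higher and MMP1 was 2.39-fold lower (median 0.24).

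**Figure D4:**
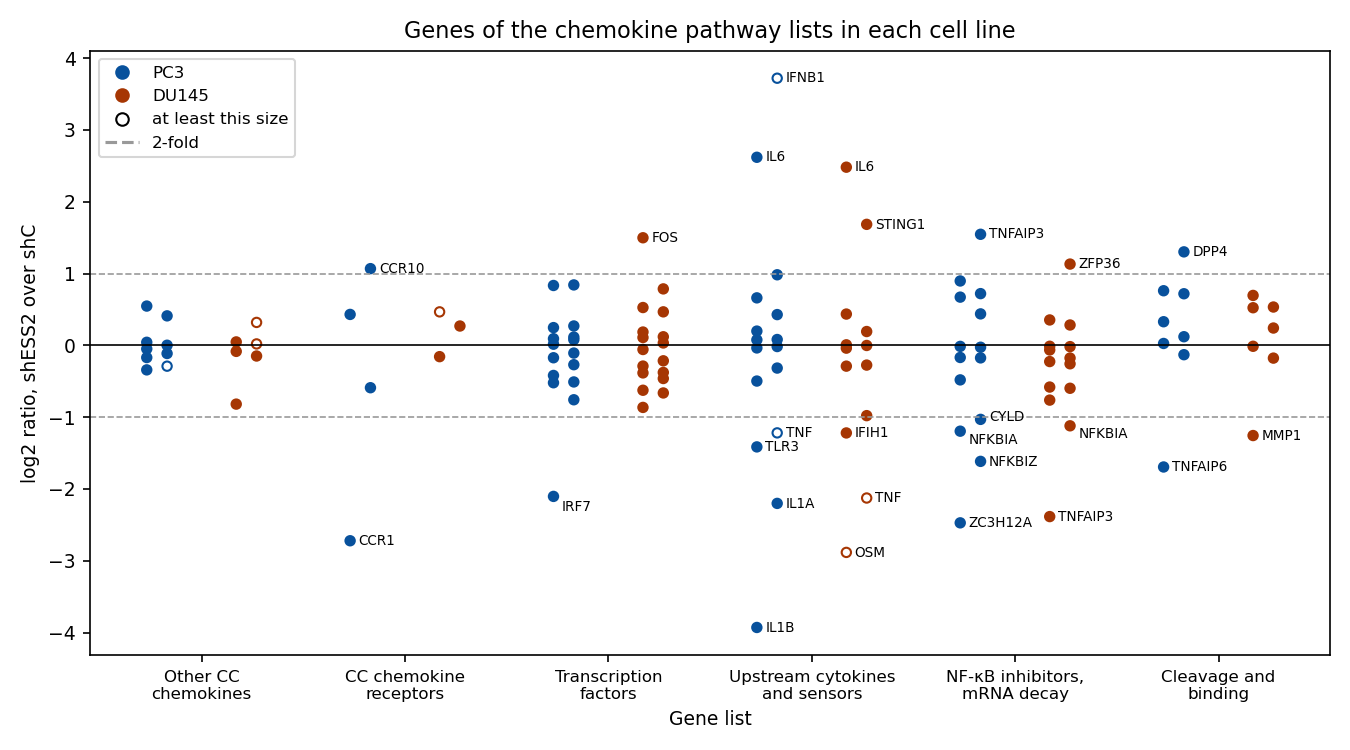
The log2 ratio of shESS2 over shC for the genes reported here from 6 lists of the chemokine pathway, in PC3 (blue) and DU145 cells (brown), with open points for ratios that are bounds and names at genes past 2-fold (dashed lines). The 9 other CC chemokines compared in PC3 and the 6 in DU145 cells lie between the dashed lines, while IL6 lies above the upper line in both lines and TNFAIP3 above it in PC3 and below the lower one in DU145.

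The genes around the chemokine loci were mostly within 2-fold, as were most of all genes. Of 37 genes between the chromosome 17 chemokines or beside them, 0 of 27 compared in PC3 cells were more than 2-fold higher and 1 was lower (DHRS11, log2 ratio −1.02), with a median of −0.09. In DU145 cells 0 of 29 were higher and 1 was lower (RDM1, −1.26, while its other probe gave −0.26), with a median of −0.10. Near CCL20 on chromosome 2, 1 of 6 was higher in PC3-shESS2 cells (DAW1, 4.02-fold) and 0 were lower, and in DU145 cells 0 of 7 were higher and 1 was lower (COL4A3, at least 2.88-fold).

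Markers of leukocytes, which are the usual source of CCL3, CCL4 and CCL5, were in part dim and in part measured. Of 17 such genes 15 had a probe, of which 4 were well above background on each PC3 array and 5 on each DU145 array. The T-cell and natural killer cell genes CD3E, CD2 and GNLY, the B-cell gene MS4A1, and CD163, MPO and HLA-DRA were dim on all 4 arrays. The probes of the pan-leukocyte gene PTPRC disagreed, as its brightest was well above background on all 4 arrays, at 59.7 and 60 in the PC3 and 27.2 and 30.0 in the DU145 populations, and 3 of 5 were dim on all 4. The summed signal of the list was 435 in PC3-shC and 236 in PC3-shESS2 cells, and 330 in DU145-shC and 418 in DU145-shESS2 cells, so that it was lower on the PC3 array where CCL3, CCL3L3, CCL4 and CCL5 were highest. The monocyte genes CD14 (221 and 54.7, against 172 and 274 in DU145 cells) and CSF1R (43.8 and a dim 3.73) were lower in PC3-shESS2 than in PC3-shC cells, and account for the lower sum. The myeloid gene ITGAM went from a dim 9.53 to 15.7 (at least 1.49-fold higher), and the CD8A probes disagreed, with 54.1 and 49.5 by the probe used for the gene and 75.8 and 163 by the other. In DU145 cells the only marker of the list past 2-fold was PF4. It was at least 3.94-fold lower with the ESS2 shRNA (31.2 and a dim 7.78), while the sum there was higher. The summed signal of 7 fibroblast and endothelial markers was 695 in PC3-shC and 317 in PC3-shESS2 cells, and 160 and 163 in DU145 cells. The difference in PC3 cells lay mostly in PECAM1 (338 and 16.4). COL1A1 was well above background on all 4 arrays (265 and 197 in PC3, 84.7 and 75.4 in DU145 cells). So were PDGFRB, VWF and CDH5 by the probe used for each gene, while COL3A1 and DCN were dim on all 4 arrays. The part of these marker genes in the chemokine values was not tested.

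The genes with the profile most like each chemokine were sought among 18122 genes well above background on at least 1 array. The chemokine genes followed here were left out of this search. Likeness was the root mean square difference of centred log2 signals over the 4 arrays, with dim values raised to the floor. For CCL3 none of the genes searched was close, since the nearest, SYTL4, differed by 2.36 and IFNL1, a type III interferon that was 402 in PC3-shESS2 and 15.6 in PC3-shC cells, by 2.64. For CCL4 the nearest were WNT5B (0.14), LOC105374118 (0.14) and TEP1 (0.16). For CCL5 they were the keratin pseudogenes KRT17P2 (0.34) and KRT17P1 (0.40) and the basal keratin KRT14 (0.81), which were bright in PC3-shESS2 cells and dim in DU145 cells. CCL5 itself was dim or near the floor in DU145 cells, so that the likeness there is largely set by the floor. For CCL20 they were CXCL1 (0.76), OAS3 (0.79) and HSH2D (0.80). CXCL1, a neutrophil chemokine, had a signal of 200000 in PC3-shC, 74600 in PC3-shESS2, 5130 in DU145-shC and 708 in DU145-shESS2 cells, so that its 4 arrays stood in the same order as those of CCL20. These distances rest on 4 points that share slides and lines, and they are given as a description.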

How the data were processed

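The authors deposited the Agilent Feature Extraction output of each array, in which the background had been subtracted from the intensity of every spot, with no scaling between arrays. The authors also deposited a table of scaled intensity. Its columns are the processed signal multiplied by a constant of 3.65 for PC3-shC, 3.52 for PC3-shESS2, 6.17 for DU145-shC and 6.09 for DU145-shESS2 (column medians 41.6, 47.5, 77.6 and 77.3), and the GeneSpring settings behind it are not given in the sources used here. Per the labels, 0.1 µg of total RNA was labelled.

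Of 62976 spots per array, 60901 were not controls, and 82 to 121 of these were marked as outliers and left out. The log2 signals were reduced by the 75th percentile of their array, and spots of 1 probe were averaged. Accessions of 35080 of 58201 probes matched a symbol in RefSeq (GRCh38.p14), 34892 by the newer annotation release in the files and 188 by the older one alone. The probe with the highest mean signal stood for its gene. A gene entered a comparison if at least 1 of the 2 arrays showed it well above background, and dim values were raised to the lowest signal well above background. A call means a difference past 2-fold. No test was made, as each condition has 1 array, and the number of arrays limits the precision.

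The 6 genes and all lists were chosen with earlier results of these data known. Named beside them were ESS2 and GAPDH, their receptors, up to 3 genes per list and line with the largest ratio past 2-fold, the genes most alike in profile (the 3 nearest for each of CCL3, CCL4, CCL5 and CCL20, of which VILL is the one not described), and marker genes. IL1A, TLR3, STING1, IFIH1, CYLD, CCL24, CCL26, CCL28 and the NF-κB subunits were named after their values were seen. CCL3L1, CCL4L1, CCL27, CD68 and LYZ had no matching accession and were not used here. Some other genes of the lists enter the counts and are not reported here by name or in the plot of the lists. Alternatives were median scaling, quantile normalization, normexp (limma, offset 50, on the median spot signal), unfloored dim signals, a filter on both arrays, no filter (with dim signals unfloored), probe means, single probes, outliers included and the authors' table. The calculation was tested on simulated data. Python 3.11.15, numpy 2.4.6, pandas 2.3.3, Biopython 1.88, R 4.3.3 and limma 3.58.1 were used.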

Additional observations from a re-analysis of the deposited data

Results flagged for a closer look

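Among the chemokine, pathway and marker genes, the log2 ratio of shESS2 over shC pointed one way in PC3 and the other way in DU145 cells for the genes that follow, with each ratio beyond 0.157 (the spread of 2 SDs between spots, pooled over probes of signal 9 or more) and a difference past 2-fold in at least 1 line. Each line has 1 array for each condition, so that the difference between the lines was not tested. CCL3 stood at 11.26 or more in PC3 and −0.19 in DU145 cells, and CCL3L3 at 7.85 or more and −0.26, with both PC3 values being bounds. The DU145 value of CCL3L3 is under 1 SD between spots at its own signal (0.322), so that its direction there is not settled. The receptor CCR10 stood at 1.07 in PC3 and −0.16 in DU145 cells, just past 2-fold in PC3, and in DU145 at less than 2 SDs between spots of its own signal (1 SD being 0.088), so that its direction there is not settled either. IRF7 stood at −2.10 in PC3 and 0.19 in DU145 cells. TNFAIP3 was past 2-fold in both lines, at 1.55 in PC3 and −2.38 in DU145 cells. CYLD stood at −1.03 in PC3 and 0.35 in DU145 cells. The monocyte marker CD14 stood at −2.16 in PC3 and 0.63 in DU145 cells. Of the genomic neighbours, DAW1 stood at 2.01 in PC3 and −0.57 in DU145 cells.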

How the results depend on the processing

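Within a line no paired analysis was possible, because each condition has 1 array and the labels carry no replicate numbers. For the same reason no replicate could be left out. A fit over both lines with the line as a block would leave 1 residual degree of freedom and was not made, as the genes were chosen with this contrast known. Among 145 ratios of the 6 chemokine genes under alternatives, 0 of those past 2-fold in the values reported changed sign, and the small CCL4 ratio in DU145 cells went from 0.13 to −0.0006 with normexp. Of the counts of these genes past 2-fold, 51 of 60 were within 1.5 times the value reported, and so were 48 of 60 counts over all genes. With normexp 1 chemokine gene was lower in DU145 cells, and 1 was higher and 1 lower between the controls. With median scaling and with quantile normalization 2 were lower between the controls. With a filter on both arrays 1 was higher in PC3 cells, 1 was lower in DU145 cells, and between the controls 1 was higher and 0 were lower, since fewer genes were compared. Over all genes, normexp gave 248 higher and 323 lower in PC3, 139 higher and 77 lower in DU145 and 2021 lower between the controls. No filter, a setting that also left dim signals unfloored, gave 1431 higher and 1193 lower in PC3 and 959 higher and 1061 lower in DU145 cells. Unfloored dim signals with the filter kept gave 849 higher and 736 lower in PC3 and 546 higher and 513 lower in DU145 cells. A filter on both arrays gave 271 lower in DU145 cells. Median scaling moved the PC3 split of 650 higher and 649 lower to 511 and 803, and the authors' values to 792 and 535. Between the controls the split of 3863 higher and 3480 lower moved to 6132 and 2371, and to 2399 and 5159, and the median log2 ratio of all genes, 0.12, moved to 0.58 and −0.33. The normexp offset of 50 by itself holds ratios of signals under 50 within about 2-fold, and the cause of the other changes was not tested. The CCL3 ratio in PC3 cells ranged from 8.26 with normexp to 11.35, that of CCL3L3 from 4.92 with normexp to 9.84, that of CCL5 from 4.50 to 5.91 and that of CCL20 from −3.34 to −3.04, and the CCL20 ratio in DU145 cells from −2.91 to −1.81 with normexp. Signals near background limit CCL2, CCL4 and CCL3L3, and CCL3 and CCL5 where they were dim.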
